A study of Drosophila melanogaster with 7 samples.

Results

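The 73 genes described here encode proteins of the mitochondrial ribosome in *Drosophila melanogaster*. They are the entries of the gene table whose FlyBase symbol starts with mRpL, the proteins named for the large subunit (47 genes), or with mRpS, those named for the small subunit (26 genes), out of 17619 entries in all. The study induced midgut tumors in adult flies and sequenced the RNA of their single cells, to ask whether tumor cells differ from each other in their metabolism. Clones arose after a heat shock of 2 h at 37°C, given 2 to 3 days after eclosion, and the tumors were taken at least 21 days post-induction (dpi). All 7 libraries carried the same alleles: the flies held yw, HS-flp and HS-mflp5, the progenitor driver esg-gal4 with UAS-flybow, FRT82B with Tub-Gal80, UAS-RasV12, and FRT82B with Apc2N175K and ApcQ8. Recombined clones therefore lost both Drosophila Apc functions and the Gal80 repressor. They expressed the Ras oncogene where esg-gal4 was active, that is, in intestinal stem cells and the enteroblasts they give rise to. Tumors were sequenced singly in 6 libraries (Tind1 to Tind6), and 6 tumors were processed together in 1 more (Tgrp). No tumor-free gut and no second genotype was analysed here, so the comparisons below are between cells of the same tumor.

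Mitochondrial ribosomes translate the few messenger RNAs of the mitochondrial genome, which in animals all encode subunits of the respiratory chain and of ATP synthase. Their proteins are encoded in the nucleus, made in the cytosol and imported, and they assemble on ribosomal RNAs transcribed inside the mitochondrion. Many descend from bacterial ribosomal proteins, and others were acquired by the mitochondrial ribosome and have no bacterial counterpart.

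Cells with 100 to 2000 detected genes and at most 15% of their transcript counts from the mitochondrial genome (mt: genes) were kept, which left 7998 of 9914 deposited cells. The counts are of unique molecular identifiers (UMIs), 1 per captured transcript irrespective of its length, so gene length does not scale the levels. Reads that fall on more than 1 gene are not counted, and levels of different genes are compared with that limit. The kept cells ranged from 309 in Tind6 to 2922 in Tgrp, and the median depth from 317 UMIs per cell in Tind3 to 2384 in Tind4. The defining progenitor marker esg lay between 134 and 276 CPM (UMIs of the gene per 1000000 UMIs of the library) in the 7 libraries, Ras85D, the gene of the oncogene, between 1532 and 2781, and the stem cell ligand Delta between 69.1 and 456. The enterocyte marker Myo31DF lay between 72.5 and 184 CPM, the enteroendocrine factor pros between 0 and 16.3, the muscle myosin Mhc between 0 and 5.54, and the hemocyte gene Hml between 0 and 3.63. Another enteroendocrine marker, Tk, lay between 0 and 163 CPM, highest in Tind5 and at 29.2 CPM in Tgrp. Summed over 12 enteroendocrine markers, the share of UMIs was 0.0502% in Tind2, 0.0457% in Tind5 and 0.0154% in Tgrp. In Tind1, Tind3, Tind4 and Tind6 that sum lay between 0.0011% and 0.0061%. Tind4 and Tind5 shared 116 cell barcodes, more than any other pair of libraries, and 99 of the kept Tind5 cells carried one, so the mean share, the class ratios and the counts of called genes are also given without those cells. Values within classes, correlations and levels of single genes are given with them only.

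Transcripts of mitochondrial ribosomal proteins were a small part of the RNA of each tumor. Summed over the 73 genes they were 0.343, 0.281, 0.223, 0.329, 0.245 and 0.310% of the UMIs in Tind1 to Tind6, a mean of 0.289% ± 0.047 (SD, n = 6 tumors), with 0.246% in Tgrp. The highest tumor was thus 1.54-fold above the lowest. With 300 UMIs drawn at random from each cell, the tumors ran from 0.229% to 0.318%, a 1.39-fold range. The study lists the tumor of Tind3 as the oldest, and the part of age was not tested. The 95% Wilson intervals, which cover counting error only, ran from 0.338% to 0.348% in Tind1 and from 0.202% to 0.246% in Tind3, the shallowest library with 403 mRp UMIs, and do not overlap. Without the Tind5 cells with shared barcodes the mean was 0.286%. Cytosolic ribosomal protein genes held 24.4% ± 3.6 of the UMIs, nuclear genes of the respiratory chain 1.61% ± 0.29, the mitochondrial genome 8.10% ± 1.27 and glycolytic enzymes 1.00% ± 0.30 (SD, n = 6 each). The share of the mRp genes relative to the nuclear respiratory genes varied little, with ratios of 0.166, 0.173, 0.179, 0.193, 0.184 and 0.185 in Tind1 to Tind6 and 0.163 in Tgrp. The mRpL genes, grouped by symbol, made up 0.187% ± 0.028 and the mRpS genes 0.102% ± 0.021 of the UMIs.

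**Figure D1:**
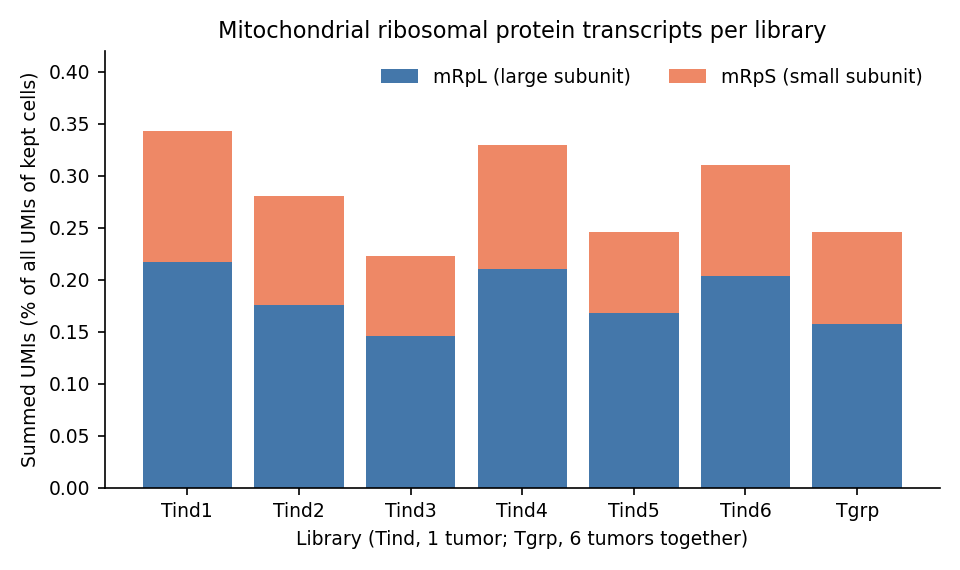
Percent of all UMIs of the kept cells that came from mRpL (lower bar segment) and mRpS genes (upper segment), in the 6 individual tumors and in the library of 6 tumors (Tgrp). Total heights run from 0.223% in Tind3 to 0.343% in Tind1, with the mRpL segment larger in every library.

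The most abundant member was mRpL33, a small large-subunit protein of a bacterial family, encoded on the X chromosome (X:4321764-4322231, minus strand, Drosophila genome release 6). It was found at 181, 200, 88.6, 115, 141 and 149 CPM in Tind1 to Tind6 (mean 145.8 ± 41.1, SD) and 205 CPM in Tgrp. It ranked first of the 73 genes in 6 of the 7 libraries, and in Tind3 the first was mRpL28. mRpL28 (2L:4973976-4975316, plus strand), also of a bacterial large-subunit family, averaged 91.8 ± 32.7 CPM (n = 6), with 45.2 CPM in Tind2 and 127 CPM in Tind6 as its ends. Next came mRpL42 (83.8 ± 22.8 CPM) and mRpS25 (73.2 ± 15.8), members of families without a bacterial counterpart, then mRpL22 (71.4 ± 21.7), whose bacterial relative lines the exit tunnel for the nascent chain, and mRpS16 (70.6 ± 34.9), a small-subunit protein. The means of mRpL33 and mRpL28 differed by more than either SD, although their ranges overlapped, and the later neighbours in this order did not differ beyond their SDs. Together the 6 held 16.1% to 20.6% of the mRp UMIs of a library, so no few genes carried the sum.

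At the other end, mRpL53 (2R:13954195-13955664) had 0 UMIs in all 7 libraries, which allows a level of up to 0.209 CPM over the 14380715 UMIs of the kept cells. Its exons overlap those of CG33155 on the same strand, and reads that fall on more than 1 gene are not counted for either, so the 0 says nothing certain about its transcription. mRpS14 overlaps CG32533 and mRpL13 overlaps CG10602 in the same way, and their values carry that limit. The lowest detected member was mRpS24 at 16.7 ± 2.1 CPM (n = 6), and mRpL20 and mRpL9 had no UMI in Tind3 alone. mRpS18A (3R:8561917-8562593), of the S18 family, was the 1 member at over 4 times the median of the other 5 tumors in any tumor where 20 or more UMIs would be expected, with 97.2, 75.6, 22.2, 68.2, 21.8 and 17.6 CPM in Tind1 to Tind6 and 57.3 CPM in Tgrp. Its level in Tind1 was 4.39 times the median of the other 5 tumors, and the 3 tumors with low values are the 3 shallowest libraries, where it was counted 4, 12 and 4 times.

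Cells were brought to the same depth by a random draw of 300 UMIs from each, and those with fewer (304 in all: 181 in Tind3, 87 in Tind5 and 36 in Tind6) were left out. At this depth a cell held about 1 mRp UMI, and 41.8% to 55.9% of the cells of a library held none, so single cells cannot be ranked by these genes. Cells of each tumor were therefore divided by the UMIs of another gene list into a low, a middle and a high class at the tertiles of those UMIs, and the mRp genes were summed over each class. Because many cells held the same few UMIs the classes were unequal, by respiration from 105 middle to 421 high cells in Tind2, and by glycolysis Tind5 had no middle class. The lists were the nuclear genes of respiratory complexes and ATP synthase (respiration), 12 glycolytic enzymes, a set of replication and mitosis genes (dividing, 2 or more UMIs against 0), and the genes of the mitochondrial genome. No mRp gene is on any of them.

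The mRp genes followed the nuclear respiratory genes. Respiration-high cells held 0.378% ± 0.068 and respiration-low cells 0.190% ± 0.044 of their UMIs in mRp transcripts (SD, n = 6 tumors). At this equal depth the log2 ratio averaged 1.01 ± 0.56. The share was higher in the high class in 6 of 6 tumors, with log2 ratios of 0.89, 0.55, 0.79, 2.08, 1.10 and 0.66 in Tind1 to Tind6 and 1.29 in Tgrp. In Tind4 it was 0.488% in respiration-high cells and 0.116% in respiration-low cells, and without that tumor the mean log2 ratio was 0.80 ± 0.21 (SD, n = 5). The shares rest on 83 to 931 mRp UMIs in the high classes and 52 to 650 in the low classes. From the low to the middle to the high class the share rose step by step in 4 of 6 tumors and in Tgrp. In Tind2 (0.230%, 0.219% and 0.338%) and Tind3 (0.184%, 0.111% and 0.318%) the middle class was the lowest. Without the shared barcodes the mean log2 ratio was 1.02. It was 1.02 ± 0.66 for mRpL and 1.03 ± 0.50 for mRpS genes, and in full-depth sums 1.07 and 0.94, a difference between these groups that was not tested. The cytosolic ribosomal protein genes differed far less between the same cells, by 0.17 ± 0.20 (higher in 5 of 6 tumors), and nucleolar ribosome biogenesis genes by 0.07 ± 0.26 (3 of 6), which in full-depth sums was 0.23 ± 0.32 (5 of 6). Transcripts of the mitochondrial genome differed by 0.01 ± 0.20 (higher in 2 of 6).

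Other properties moved with this split. Respiration-high cells were deeper in 5 of 6 tumors, most of all in Tind4, with a median of 3150.5 UMIs against 1439 in respiration-low cells, and the dividing list was higher in them by 0.76 ± 0.45 on the log2 scale (6 of 6 tumors). Summed over 9 visceral muscle markers, of which 8 were found in each class, the share was 0.0108% in respiration-high cells and 0.0218% in respiration-low cells, lower in 6 of 6 tumors. Summed over 12 enteroendocrine markers, 10 of them found in the high and 12 in the low class, it was 0.0305% in respiration-high cells and 0.0454% in respiration-low cells, also lower in 6 of 6. These means too are uneven, with tumors from 0.00046% to 0.111% in the high and from 0.0021% to 0.126% in the low class. The 12 enterocyte markers were mixed (higher in 3 of 6 tumors, with LManV and deltaTry at 0 throughout). The 7 stem cell and enteroblast markers were all found in both classes. They were at 0.0774% in respiration-high cells and 0.0560% in respiration-low cells (higher in 4 of 6). These marker shares are at 300 UMIs per cell, where the muscle sums rest on 65 and 124 UMIs. In full-depth sums the muscle and the enteroendocrine markers were each higher in respiration-high cells in 2 of 6 tumors. The enterocyte markers were then higher in 4 of 6, and the stem cell and enteroblast markers in 6 of 6. The part of depth, of division and of these cell types in the mRp difference was not tested. Among the fits given below, 1 kept only cells with 0 dividing UMIs at 300, and 1 left out the 5% deepest cells. Neither is such a test, since the cells kept in the first can include dividing ones. In the second, depth was not matched between the classes.

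**Figure D2:**
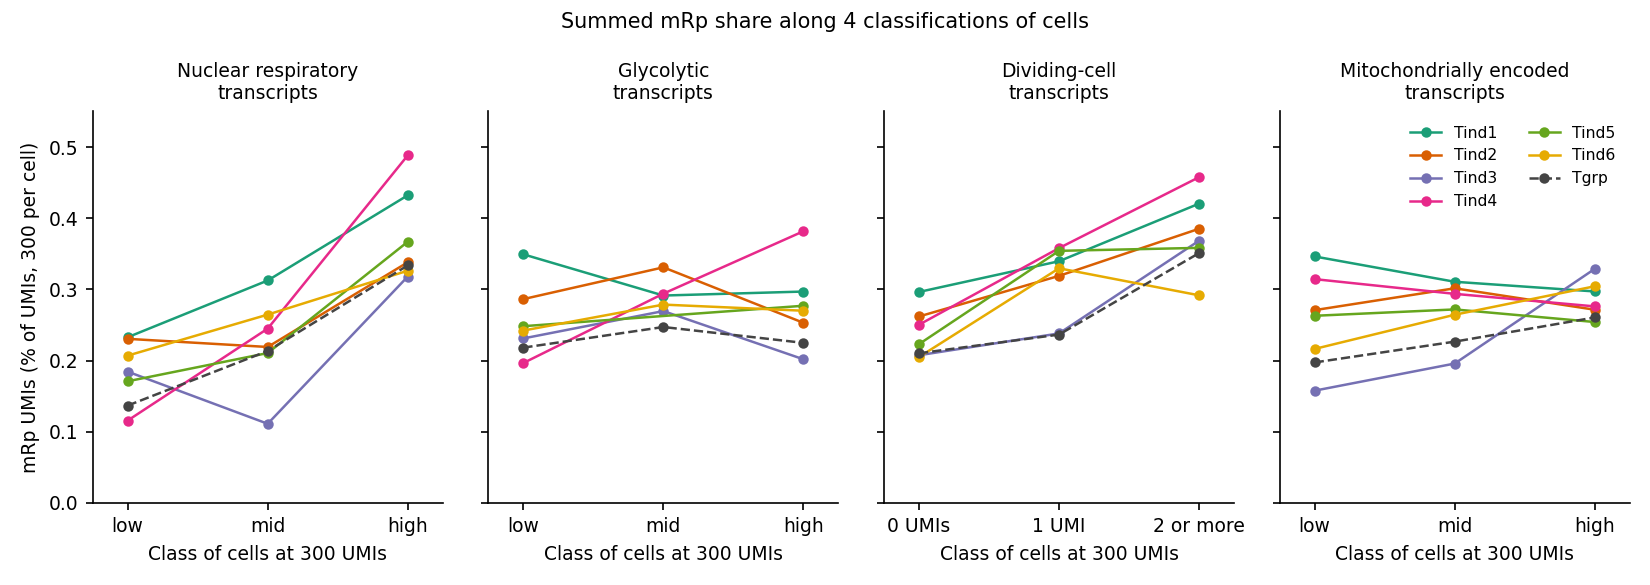
Percent of UMIs from the 73 mRp genes, at 300 UMIs per cell, in the low, middle and high classes of cells by respiration, glycolysis, dividing (0, 1, and 2 or more UMIs) and mt: UMIs, with 1 line per library (Tgrp dashed). The high class is above the low class in all 7 libraries for respiration and for dividing, and in some libraries only for glycolysis and mt: genes.

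Gene by gene, full-depth UMIs were summed over each class of each tumor and tested across all genes with edgeR's quasi-likelihood test, with the tumor as a block and the Benjamini-Hochberg adjustment over all genes tested. mRpL53 and mRpL9 had too few counts to be tested. Of the other 71 mRp genes, 34 were higher in respiration-high cells at an adjusted p under 0.05 and 0 were lower, where 15.2% of all 4490 genes tested were called higher and 12.6% lower. The median log2 fold change of the members was 0.75, against 0.09 over all genes, and 68 of the 71 were above 0. Of the mRpL genes 25 of 45 were called (median 0.84), and of the mRpS genes 9 of 26 (median 0.59). Of the members with a bacterial relative 20 of 41 were called and of those without 14 of 30, a grouping made after the values were seen. Of the same cells' 81 tested cytosolic ribosomal protein genes, 2 were called higher and 2 lower (median -0.09), and of 21 nucleolar genes 10 higher and 3 lower (median 0.61). The share of nucleolar genes called higher was thus like that of the mRp genes, although some were lower. Scaling to total UMIs in place of edgeR's TMM factors moved the median of all genes to 0.44 and the calls to 1428 higher and 248 lower, where TMM gave 684 and 564. Under that scaling 55 members were called higher and 0 lower, with a median of 1.13, and 17 cytosolic ribosomal protein genes were called higher and 0 lower, so the direction for the cytosolic ribosome depends on the scaling and that for the mitochondrial ribosome does not. Without Tind1, the deepest tumor library by total UMIs, 15 members were called higher of 56 tested, and over all genes 299 of 3360. With only the cells that had 0 dividing UMIs 15 of 61 members and 358 of 3799 genes were called higher, and without the 5% deepest cells of each library 20 of 67 members and 424 of 4100 genes. Without the shared barcodes 34 members were called, 30 of them among the 34 above.

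The called members included the most abundant gene, mRpL33, but were as a group no more abundant than the rest. Their median level was 30.9 CPM, against 37.3 CPM for the 37 tested members that were not called. Within single tumors, 70, 62, 50, 70, 65 and 50 of the 71 members were higher in respiration-high than in respiration-low cells of Tind1 to Tind6, where 67.9%, 73.3%, 54.9%, 78.4%, 67.4% and 47.6% of all genes tested were. In Tgrp, which was not used in the fit, 71 of the 71 were higher (74.5% of all genes), and all 34 called members were among them, as were 99.3% of all genes called higher. In 30 members respiration-high cells were above respiration-low cells in every individual tumor (20.7% of all genes tested), and in 9 every respiration-high value was above every respiration-low value (5.92% of all genes tested).

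**Figure D3:**
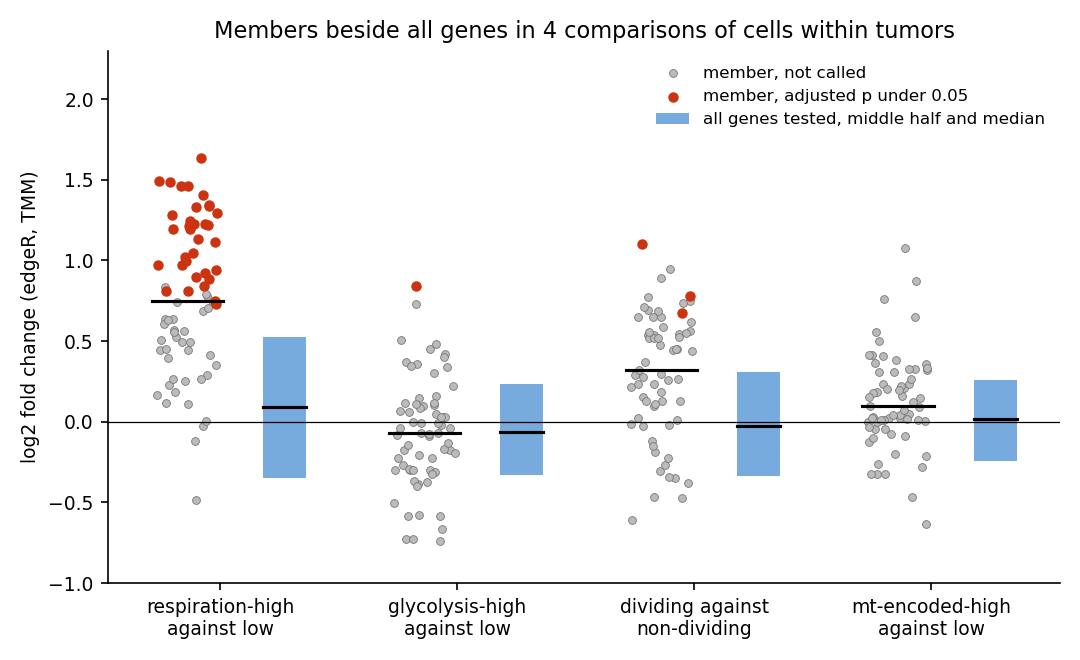
Log2 fold change of each tested mRp gene (edgeR, high against low class) in the comparisons by respiration, glycolysis, dividing and mt: UMIs, in red where called at an adjusted p under 0.05 and in grey where not. The blue bars to the right of the points span the lower to the upper quartile of all genes tested, and black lines mark medians. In the respiration comparison 34 of 71 points are red and 68 lie above 0, and the other comparisons hold 1, 3 and 0 red points.

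The 6 called members with the lowest adjusted p among those of 1 direction in every tumor were proteins of both subunits, all of bacterial families. mRpS14 (X:19479382-19480238, minus strand), of the head of the small subunit, had 122.8, 63.6, 89.5, 104, 118 and 59.6 CPM in respiration-high cells of Tind1 to Tind6, against 50.7, 20.8, 16.5, 25.5, 18.2 and 12.6 CPM in respiration-low cells. The lowest value in the high class was above the highest in the low class, and the log2 fold change was 1.41 ± 0.25 (SE, edgeR adjusted p = 0.00011). In Tgrp it had 103 CPM in respiration-high and 30.9 CPM in respiration-low cells. mRpS10 (3R:15229665-15230516, plus strand), likewise a protein of the small subunit's head, did not overlap either, with 67.2, 30.1, 59.7, 73.2, 63.4 and 59.6 CPM in respiration-high cells and 25.6, 18.7, 16.5, 7.96, 9.10 and 12.6 CPM in respiration-low cells. Its log2 fold change was 1.46 ± 0.31 (adjusted p = 0.00061). With only the cells that had 0 dividing UMIs, mRpS10 was no longer called (log2 fold change 0.86).

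In the large-subunit members of this set, chosen as above for 1 direction in every tumor, the ranges of the classes met. mRpL33 had 275, 253, 134, 167, 212 and 203 CPM in respiration-high cells, against 110, 143, 65.9, 47.7, 63.7 and 88.1 CPM in respiration-low cells, and only Tind2 among the low values lay above a high value, that of Tind3. Its log2 fold change was 1.00 ± 0.20 (edgeR adjusted p = 0.00033), and Tgrp had 317 CPM in respiration-high and 83.3 CPM in respiration-low cells. mRpL27 (2L:4458595-4459638, minus strand), whose bacterial relative reaches into the peptidyl transferase center, had 83.1, 70.3, 29.8, 94.9, 76.1 and 47.7 CPM in respiration-high cells and 25.1, 12.5, 0, 27.1, 22.8 and 37.8 CPM in respiration-low cells. It changed by 1.46 ± 0.27 (adjusted p = 0.00016), and only the low value of Tind6, from 3 UMIs, lay above a high value. mRpL36 (3L:8124584-8125132, minus strand), a very short protein, had 96.8, 48.5, 44.8, 95.8, 38.1 and 23.8 CPM in respiration-high cells and 26.6, 18.7, 0, 11.1, 22.8 and 0 CPM in respiration-low cells, a log2 fold change of 1.63 ± 0.31 (adjusted p = 0.00019). mRpL34 (2R:16098948-16099337, plus strand), another short protein of the large subunit, had 136.5, 107, 29.8, 100.3, 110 and 71.5 CPM in respiration-high cells and 43.2, 60.2, 0, 15.9, 27.3 and 50.3 CPM in respiration-low cells, a change of 1.29 ± 0.26 (adjusted p = 0.00039). In both genes the values of Tind3 rest on 3 UMIs or fewer per class.

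**Figure D4:**
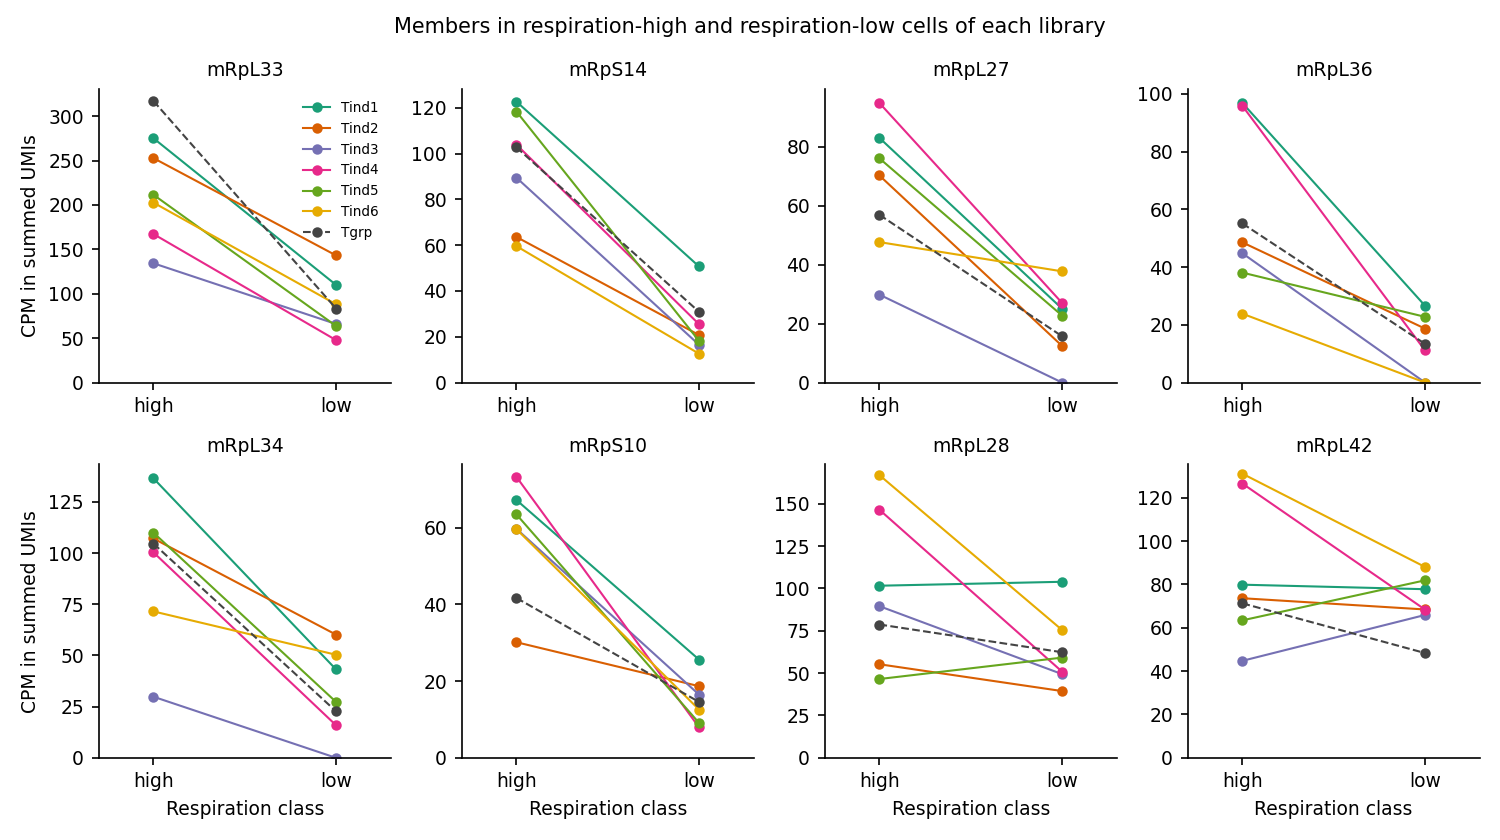
Level (CPM, full depth) of 8 mRp genes in respiration-high (left of each pair) and respiration-low cells (right), with 1 line per library (Tgrp dashed). The lines of mRpS14 and mRpS10 fall in every library, with no overlap of the classes among the individual tumors, those of mRpL33, mRpL27, mRpL36 and mRpL34 fall in every library, and those of mRpL28 and mRpL42 go both ways.

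Several of the most abundant members showed no such difference. mRpL42 had 79.9, 73.7, 44.8, 127, 63.4 and 131 CPM in respiration-high cells, against 77.8, 68.5, 65.9, 68.4, 81.9 and 88.1 CPM in respiration-low cells, and its log2 fold change was -0.12 ± 0.22 (edgeR adjusted p = 0.74). mRpL28 had 102, 55.2, 89.5, 146, 46.5 and 167 CPM in respiration-high cells and 104, 39.4, 49.4, 50.9, 59.2 and 75.5 CPM in respiration-low cells (0.23 ± 0.24, adjusted p = 0.52). The tumors split 4 to 2 in both genes. mRpL22 (0.18 ± 0.24, adjusted p = 0.60) and mRpS25 (0.42 ± 0.26, adjusted p = 0.23) were not called, whereas mRpS16 was (0.81 ± 0.24, adjusted p = 0.011). mRpS18A, uneven between tumors, was also called (1.13 ± 0.28, adjusted p = 0.0025), with the high class above the low class in 4 of 6 tumors. Singled out after the values were seen, mRpS5 had the lowest fold change of all members, -0.49 ± 0.28 (adjusted p = 0.19), with 3 of 6 tumors higher. mRpL30 (-0.03 ± 0.25, adjusted p = 0.95) was the only other member below 0 besides mRpL42. Scaled to total UMIs, the fold changes of mRpL42 and mRpL30 were above 0 and that of mRpS5 remained below.

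Other nuclear genes for mitochondrial gene expression were set beside the members from a list of 39, of which 14 had enough counts. They include the mitochondrial ribosomal proteins that do not carry an mRp symbol, the aminoacyl-tRNA synthetases of the organelle, and factors for its DNA and RNA. In respiration-high cells 5 of the 14 were called higher and 0 lower. They were tko, bonsai, TyrRS-m, mtSSB and TFAM, of which the last 2 are named only because the count is small. tko encodes the S12 protein of the decoding center of the small subunit, and had 90.0, 51.9, 119, 91.3, 67.7 and 35.8 CPM in respiration-high cells against 22.1, 22.8, 0, 17.5, 13.7 and 12.6 CPM in respiration-low cells, with no overlap. Its log2 fold change of 1.68 ± 0.29 (edgeR adjusted p = 5.9e-05) was above that of any mRp gene, but by less than its SE, with mRpL36 at 1.63. bonsai, the S15 protein, changed by 0.98 ± 0.35 (adjusted p = 0.035) and TyrRS-m, the mitochondrial tyrosyl-tRNA synthetase, by 1.18 ± 0.45 (adjusted p = 0.047), both in 6 of 6 tumors. mtSSB, which binds single-stranded mitochondrial DNA, changed by 0.86 ± 0.24 (adjusted p = 0.0081), and TFAM, which packages that DNA and starts its transcription, by 0.99 ± 0.31 (adjusted p = 0.016), both in 5 of 6 tumors.

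By glycolysis, mRp transcripts at equal depth did not separate the cells in 1 direction. Glycolysis-high cells held 0.280% and glycolysis-low cells 0.259% of their UMIs in mRp genes on average, with log2 ratios of -0.23, -0.18, -0.20, 0.96, 0.16 and 0.16 in Tind1 to Tind6 (mean 0.11 ± 0.45) and 0.04 in Tgrp. The mean was carried by Tind4 (0.382% in glycolysis-high and 0.196% in glycolysis-low cells), where the glycolysis-high cells were also the deeper ones, with a median of 3060.5 UMIs against 1680. Without Tind4 the mean log2 ratio was -0.06 ± 0.20, and without the shared barcodes it was 0.02. In full-depth sums the mean was -0.09 ± 0.35, and the high class was above the low class in 1 of 6 tumors. Of 68 mRp genes tested, 1 was called higher and 0 lower, where 6.45% of all genes were called higher and 3.96% lower. The median log2 fold change was -0.07 over the members and -0.07 over all genes. In 2 members glycolysis-high cells were above glycolysis-low cells in every tumor (6.38% of all genes), and in 0 did the classes not overlap (0.905% of all genes). Cell type markers moved with this split too. The 7 stem cell and enteroblast markers were at 0.0435% in glycolysis-high and 0.0756% in glycolysis-low cells. They were higher in glycolysis-high cells in 0 of 6 tumors, and in 1 of 6 in full-depth sums. Of 12 enteroendocrine markers, 10 were found in the high and 8 in the low class, at means of 0.0685% and 0.0046%. These means are uneven over the tumors, which ran from 0.0010% to 0.248% in the high and from 0 to 0.0198% in the low class. The enteroendocrine markers were higher in 3 of 4 tumors with a ratio, and in 6 of 6 in full-depth sums. The part of both was not tested.

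The 1 member called by glycolysis was mRpL28. It had 125, 51.3, 88.0, 161, 55.9 and 200 CPM in glycolysis-high cells of Tind1 to Tind6, against 71.7, 38.4, 15.4, 64.5, 50.3 and 91.8 CPM in glycolysis-low cells. The high class was above the low class in 6 of 6 tumors, although the ranges overlapped, and the log2 fold change was 0.84 ± 0.21 (edgeR adjusted p = 0.011). In Tgrp it had 95.4 CPM in glycolysis-high and 45.7 CPM in glycolysis-low cells. Without Tind1 it was not called (log2 fold change 0.78). The same gene was among the abundant members that were not called by respiration.

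Dividing cells held more mRp transcripts than non-dividing ones. The mean factor was smaller than by respiration, although not in Tind2 and Tind3, and these splits used unlike class limits. At equal depth the share was 0.380% in dividing cells (2 or more UMIs of the dividing list) and 0.241% in non-dividing cells (0 UMIs), a log2 ratio of 0.66 ± 0.16 (SD, n = 6 tumors). It was higher in 6 of 6 tumors, with log2 ratios of 0.50, 0.56, 0.83, 0.87, 0.68 and 0.51 in Tind1 to Tind6 and 0.74 in Tgrp. The tumors were more alike here than by respiration, where Tind4 stood apart. Without Tind4 the SD of the log2 ratios was 0.21 by respiration and 0.14 by dividing. The dividing classes held only 19 to 195 cells and 21 to 246 mRp UMIs. The mRpL genes had a log2 ratio of 0.72 ± 0.17 (6 of 6 tumors) and the mRpS genes 0.53 ± 0.36 (5 of 6). In the same cells the nuclear respiratory genes differed by 0.68 ± 0.18, cytosolic ribosomal protein genes by 0.05 ± 0.15, and glycolytic genes by -0.48 ± 0.53. The 7 stem cell and enteroblast markers, 6 of them found in the dividing and 7 in the non-dividing class, were at 0.0939% in dividing and 0.0591% in non-dividing cells, a log2 ratio of 0.71 ± 0.69 (5 of 6 tumors, and 6 of 6 in full-depth sums), and their part in the mRp difference was not tested. Without the shared barcodes the mRp log2 ratio was 0.70.

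Few single members passed the test between dividing and non-dividing cells. Tind3 had 19 dividing cells, under the minimum of 20, so this fit used 5 tumors. Of 65 mRp genes tested 3 were called higher and 0 lower, where 5.28% of all genes were called higher and 8.66% lower, a share of members close to the background. Their median log2 fold change was 0.32, against -0.03 over all genes, and 16 were higher and 0 lower at an unadjusted p under 0.05. In 15 members dividing cells were above non-dividing cells in each of the 5 tumors (15.4% of all genes), and in 6 the classes did not overlap (4.44% of all genes). Scaled to total UMIs, the median of all genes was 0.25, all genes split into 545 higher and 122 lower in place of 208 and 341, and 17 members were called higher. DESeq2 called 0 members.

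The 3 were mRpL3, mRpL34 and mRpL36, all of the large subunit and all also called by respiration. mRpL3 (X:15761248-15762663, plus strand), whose bacterial relative is among the first proteins to bind in large-subunit assembly, had 32.6, 55.3, 44.9, 50.8 and 39.3 CPM in dividing cells of Tind1, Tind2, Tind4, Tind5 and Tind6, against 13.4, 19.1, 16.2, 21.6 and 10.2 CPM in non-dividing cells. The classes did not overlap and the log2 fold change was 1.10 ± 0.37 (edgeR adjusted p = 0.037), but the dividing values of Tind5 and Tind6 rest on 2 UMIs each. mRpL34 had 136, 166, 99.7, 76.2 and 78.7 CPM in dividing cells and 64.6, 75.4, 58.5, 59.4 and 40.9 CPM in non-dividing cells, again with no overlap (0.67 ± 0.23, adjusted p = 0.038). mRpL36, named because of the small count, was higher in 4 of the 5 tumors (0.78 ± 0.27, adjusted p = 0.038). Without Tind1, without Tind2 or without Tind6, 0 members were called, and without the shared barcodes 2.

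Between cells with many and few transcripts of the mitochondrial genome, the mRp genes showed no common direction. The share was 0.289% in mt-high and 0.261% in mt-low cells, with log2 ratios of -0.22, 0.00, 1.06, -0.19, -0.05 and 0.49 in Tind1 to Tind6 (mean 0.18 ± 0.50) and 0.40 in Tgrp. Tind3 set most of the mean, and without it the log2 ratio was 0.01 ± 0.29. Without the shared barcodes it was 0.22. With edgeR, 0 of 64 mRp genes were called in either direction, where 1.61% of all genes were called higher and 1.44% lower. At an unadjusted p under 0.05, 5 were higher and 1 lower, and DESeq2 also called 0. In 1 member mt-high cells were above mt-low cells in every tumor (4.45% of all genes), and 0 had classes without overlap (0.313% of all genes). The median of the members was 0.10 with TMM and -0.05 when scaled to total UMIs. In these same cells 33 of 81 cytosolic ribosomal protein genes were called higher and 0 lower, with a median of 0.51.

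Because respiration-high cells were more often dividing, the mRp share was also read within classes. Among dividing cells it was 0.494% in respiration-high and 0.205% in respiration-low cells, a log2 ratio of 1.36 ± 0.61, and among non-dividing cells 0.338% in respiration-high and 0.183% in respiration-low cells, a log2 ratio of 0.90 ± 0.70 (each higher in 6 of 6 tumors). The respiration difference was thus present in both classes. At full depth, however, the non-dividing class still held 0.0912% of its UMIs in the dividing list, against 0.464% in the dividing class. It can therefore include dividing cells, so these values cannot show the difference without division. The respiration difference was also positive within glycolysis-low cells (1.35 ± 0.70, 6 of 6 tumors) and glycolysis-high cells (0.55 ± 0.59, 5 of 6). The same held within mt-high cells (0.99 ± 0.69, 6 of 6) and mt-low cells (0.84 ± 0.71, 5 of 6). Read the other way, dividing cells exceeded non-dividing cells by 0.57 ± 0.20 among respiration-high cells (6 of 6 tumors) and by 0.11 ± 0.69 among respiration-low cells (4 of 6). Glycolysis-high cells differed from glycolysis-low cells by -0.27 ± 0.34 among respiration-high cells (higher in 2 of 6 tumors) and by 0.54 ± 0.60 among respiration-low cells (5 of 6). The smallest of these classes held 8 cells, and whether the differences differ between classes was not tested.

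**Figure D5:**
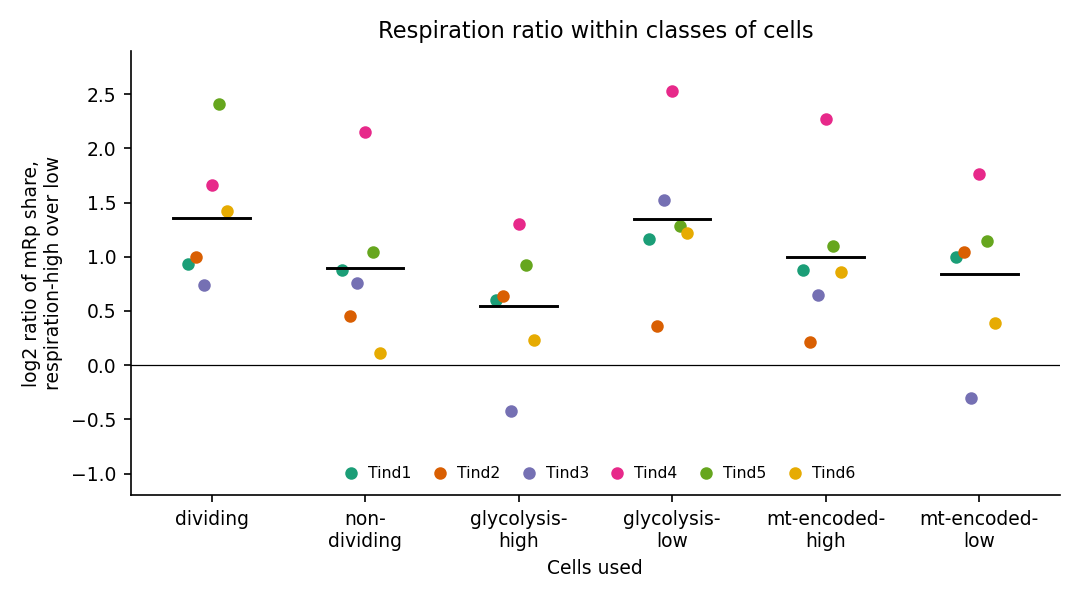
Log2 ratio of the mRp share at 300 UMIs per cell, respiration-high over respiration-low cells, within dividing, non-dividing, glycolysis-high, glycolysis-low, mt-high and mt-low cells. Points are the 6 individual tumors and the horizontal line is their mean, which runs from 0.55 (glycolysis-high) to 1.36 (dividing).

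Cell by cell, the Spearman correlation of mRp UMIs with the UMIs of the nuclear respiratory genes, both at 300 UMIs, averaged 0.288 over the 6 tumors (0.193 to 0.494). It was 0.136 with the dividing list, 0.103 with the other genes of mitochondrial expression, 0.050 with cytosolic ribosomal protein genes, 0.030 with glycolysis and 0.024 with the mitochondrial genome. The mRpS and mRpL sums correlated with each other by 0.100 only. These are descriptions over cells that share a library and hold about 1 mRp UMI each.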

How the data were processed

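Single-cell libraries (10x Genomics 3′ v3.1) were made from 6 individual tumors and from 6 tumors together, and the authors deposited raw UMI counts per gene and cell from Cell Ranger 6.0.1 against genome release r6.42, already filtered to cells. Doublet removal is not given in the sources used here, and no doublet caller was run. Symbols came from a gene-name table (17556 of 17619 entries matched) and positions from the Ensembl annotation of release 6.

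Cells with 100 to 2000 genes and at most 15% mt: UMIs were kept, totalling 180582 to 5133789 UMIs per library. Each was thinned to 300 UMIs (seed 1) and classed within its library by tertiles of a list's UMIs. Full-depth counts were summed per tumor and class, and a tumor entered a fit with 20 or more cells in both classes. The fits used edgeR 4.0.16 (R 4.3.3) with filterByExpr, TMM and quasi-likelihood tests, called at an adjusted p under 0.05 over all genes. The tumor was the block, since both sums of a pair come from the same tumor. DESeq2 1.42.0 was an alternative, and the fit was tested on simulated data. The p-values measure the spread between 6 separate tumors of 1 genotype, or 5 in the comparison by dividing. Tgrp gives values only.

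Members and lists were chosen with earlier results of these data known. Named genes were the 6 most abundant members, those under 10 UMIs, those apart by over 4-fold in 1 tumor, and the up to 6 called members (up to 4 for other mitochondrial genes) with the lowest adjusted p and 1 direction in every tumor. No test was made of the summed share.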

Additional observations from a re-analysis of the deposited data

Results flagged for a closer look

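In 47 groups of tumor values the highest or lowest value was set against the spread of the others, and in 7 it stood far from the rest. Chance gives about 1 in 20. Of the 7, 4 were the value of Tind4: the log2 ratio of the mRp share between respiration-high and respiration-low cells (2.08, against 0.55 to 1.10 in the other 5 tumors), the same ratio for the mRpL genes alone (2.35), and the ratios between glycolysis-high and glycolysis-low cells for all mRp genes (0.96) and for mRpL genes (0.91). In Tind4 the high class was also the deeper one in both comparisons, and the part of depth was not tested. The other 3 were single genes: mRpL3 in Tind3 (55.4 CPM over all kept cells), mRpS14 in respiration-low cells of Tind1 (50.7 CPM) and mRpS10 in respiration-high cells of Tind2 (30.1 CPM).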

How the results depend on the processing

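The mean summed share and the 4 mean log2 ratios stayed within 1 SD of their values under every alternative run. The mean by glycolysis nevertheless changed sign, from 0.11 at equal depth to -0.09 in full-depth sums. Leaving out each tumor in turn, chosen after seeing the data, gave log2 ratios of 0.80 to 1.10 (respiration), -0.06 to 0.18 (glycolysis), 0.62 to 0.69 (dividing) and 0.01 to 0.26 (mt: genes). Counts of called members depended more on the setting. By respiration 34 were called with the tumor block (684 of 4490 genes higher), 8 of 48 with no block (166 of 3082), 16 of 72 with DESeq2 (356 of 10856), 55 of 71 with total UMIs (1428 of 4490), 2 of 9 from the thinned sums (201 of 1523), 20 of 67 without the 5% deepest cells (424 of 4100), 15 of 61 in cells with 0 dividing UMIs (358 of 3799) and 15 to 34 without 1 tumor (15 of 56 without Tind1, 299 of 3360). The calls over all genes fell with those of the members under most of these settings. By glycolysis 1 was called with the block, 0 with no block, 0 of 7 tested from the thinned sums, 2 at a mitochondrial limit of 30%, and 0 to 1 without 1 tumor (0 without Tind1). By dividing 3 were called with the block, and 0 with no block, with DESeq2, with no filter on low counts and from the thinned sums (1 tested). Total UMIs gave 17, of which 3 were the same, thinning to 600 UMIs 8 (2 the same), the 5% deepest cells left out 5 (0 the same), a mitochondrial limit of 30% 4 (0 the same), the mitosis list 3 (1 the same), and leaving out 1 tumor 0 to 2. By mt: genes 0 were called throughout and without any 1 tumor (0 to 0), except 1, lower, without the 5% deepest cells. Of 149 alternatives for single named genes 125 kept the call, 24 lost it and 0 turned the direction. The thinned sums hold too few UMIs of single members to test more than 9 of them.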
